A study of Rattus norvegicus with 10 samples.

Results

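The genes described here are 4 neighbouring CXC chemokine genes on rat chromosome 14, Cxcl2, Cxcl1, Cxcl3 and Cxcl6, followed across gastric mucosa of Sprague Dawley rats given non-steroidal anti-inflammatory drugs (NSAIDs), which inhibit cyclooxygenases. They were chosen as the rows with Ensembl identifiers ENSRNOG00000002792, ENSRNOG00000002802, ENSRNOG00000028043 and ENSRNOG00000002843, in the same order, where all their exons start within fixed bounds on chromosome 14. All 4 were found among the 32623 genes of the deposited tables. The set was proposed, and in that sense selected on, measured levels in these libraries, with the changes against control and with honokiol known. Those changes are therefore given as descriptions and support nothing further.

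Transcripts were counted in 10 libraries of gastric mucosa, 2 in each of 5 groups. One group had an intraperitoneal dose of honokiol, a plant lignan, of 40 mg/kg with indomethacin following after 30 min. The others had aspirin at 400 mg/kg, diclofenac at 75 mg/kg or indomethacin at 48 mg/kg by mouth, and control libraries carry no treatment label. Indomethacin was given at the same dose after honokiol, per the protocol. Tissue was taken 4 h after the NSAID per the labels' protocols. The time label of the honokiol libraries reads 0.5 h and was taken as the lead of honokiol. The labels name epithelial cells as the cell type, which could not be checked against markers because the identifiers are not paired with symbols. They do not give the age or sex of the rats, a vehicle for the controls, or whether 2 libraries of 1 group are from different rats. Counts on Y chromosome features were 3582 and 1 in control and 4438 and 2 with indomethacin, so neither pair repeats 1 rat. A p-value covers only library-to-library spread, which in the other groups may be technical. Library totals ran from 23892226 counts in aspirin replicate 1 to 44977459 in diclofenac replicate 1. Mitochondrial genes took 31.5% and 35.4% of counts with honokiol plus indomethacin, 23.8% and 22.8% with aspirin, 21.4% and 21.1% with diclofenac, 32.4% and 21.7% with indomethacin, and 35.1% and 36.2% in control.

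Cxcl1, Cxcl2, Cxcl3 and Cxcl6 encode small secreted proteins of the CXC chemokine family that attract neutrophils, chiefly through the receptor Cxcr2. Epithelial cells, endothelium, fibroblasts and macrophages can all make them within hours of a stimulus such as interleukin-1, tumour necrosis factor or bacterial products, largely through the transcription factor NF-kB. In the stomach, neutrophil adherence and entry are a known part of NSAID injury.

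The deposited tables place the 4 genes on the minus strand. Cxcl2 runs from 18731378 to 18733391, Cxcl1 from 18743685 to 18745457, Cxcl3 from 18820168 to 18839595 and Cxcl6 from 18860264 to 18862407, on a genome build that the sources used here do not state. Cxcl2, Cxcl1 and Cxcl6 have 4 exons each and exonic lengths of 1072, 926 and 1624 nt. The model of Cxcl3 lists 9 distinct exons with 1466 nt over a span of 19428 bases, against a span of 1725 bases in the RefSeq table of rat assembly GRCr8, so its counts may include reads from exons outside the compact gene. No other feature overlaps any of the 4 spans. The symbols come with the definition of the set. In the RefSeq table the genes of these names stand in the same order, and the distance between the starts of Cxcl2 and Cxcl1 is 12066 bases in both annotations. From Cxcl1 to Cxcl3 it is 94138 bases in the deposited tables and 94303 in RefSeq, and from Cxcl3 to Cxcl6 22812 and 22793 bases.

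The promoters of Cxcl2, Cxcl1 and Cxcl6 are shown because all hold the same kind of NF-kB site at a similar distance from the start. No promoter sequence of Cxcl3 was available here, so its promoter was not examined. The sequences are from RefSeq, build GRCr8, minus strand of chromosome 14, each 300 bases from 250 before to 50 after the gene's start, printed 5′ to 3′. They lie at chr14:17467206-17467505 for Cxcl2, chr14:17479272-17479571 for Cxcl1 and chr14:17596368-17596667 for Cxcl6. Capitals mark every match to GGGNATTTCC on either strand, and those to ATAAAA on the gene's strand, which resembles a core promoter box.
Cxcl2: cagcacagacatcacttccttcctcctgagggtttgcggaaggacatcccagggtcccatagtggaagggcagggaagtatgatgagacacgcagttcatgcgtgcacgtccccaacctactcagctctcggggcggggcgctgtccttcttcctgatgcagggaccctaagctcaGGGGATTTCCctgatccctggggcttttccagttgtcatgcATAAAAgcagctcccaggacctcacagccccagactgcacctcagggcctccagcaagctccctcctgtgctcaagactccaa
Cxcl1: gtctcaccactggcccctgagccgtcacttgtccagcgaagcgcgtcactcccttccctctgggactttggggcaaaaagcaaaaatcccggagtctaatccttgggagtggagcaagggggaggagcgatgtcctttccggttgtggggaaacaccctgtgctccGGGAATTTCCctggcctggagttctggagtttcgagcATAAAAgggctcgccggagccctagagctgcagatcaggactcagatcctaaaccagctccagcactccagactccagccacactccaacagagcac
Cxcl6: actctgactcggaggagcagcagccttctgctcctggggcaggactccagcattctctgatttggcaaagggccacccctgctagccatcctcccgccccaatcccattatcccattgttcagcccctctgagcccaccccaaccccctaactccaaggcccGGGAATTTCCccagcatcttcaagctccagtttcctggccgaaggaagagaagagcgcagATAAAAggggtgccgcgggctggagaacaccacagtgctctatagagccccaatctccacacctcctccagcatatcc

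Each of the 3 promoters held GGGNATTTCC once, 74 to 65 bases before the start in Cxcl2, 84 to 75 in Cxcl1 and 88 to 79 in Cxcl6. These letters were chosen after the sequences were seen. Among all 33469 promoters of this length in the table, 102 (0.305%) held them on either strand. Cxcl1 and Cxcl6 share the letters GGGAATTTCC, inside a common run of 13 bases, CCGGGAATTTCCC, which was their longest. The site of Cxcl2 reads GGGGATTTCC. GGGNATTTCC was itself built from the match of each of these 3 promoters to the wider NF-kB consensus. GGGNATTTCC therefore matches all 3, at the place of their consensus match, by construction. The wider consensus matched 7.51% of all promoters. ATAAAA lay 33 to 28 bases before the start in Cxcl2, 47 to 42 in Cxcl1 and 28 to 23 in Cxcl6, and 2.17% of all promoters held it on the gene's strand between 50 and 6 bases before the start. The AP-1 letters TGANTCA, searched on both strands, were in none of the 3 windows and in 7.33% of all promoters. TTGCNNAA, a C/EBP-like run, was in the windows of Cxcl2 and Cxcl6 and in 10.6% of all. Around the set, RefSeq lists Areg, Ereg, Epgn and Mthfd2l before Cxcl2, Pf4 and Ppbp between Cxcl3 and Cxcl6, and Rassf6 beyond Cxcl6. Of these 7 genes, 5 have a promoter in the table, and 0 of the 5 held GGGNATTTCC. With these letters in 0.305% of all promoters, this does not set the neighbours apart from other genes. A match is a run of letters, and no binding was measured here.

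Cxcl1, listed in RefSeq also as Gro1, was the most abundant of the 4 per exon length in every NSAID library. Levels below are counts scaled to library size with TMM factors (CPM), which put the libraries on a common scale. It had 0.259 and 0.449 CPM with honokiol plus indomethacin, 5.45 and 38.8 CPM with aspirin, 19.5 and 55.4 CPM with diclofenac, 11.6 and 26.5 CPM with indomethacin, and 0.0632 and 0.167 CPM in control. Every NSAID library lay above every honokiol and control library, and aspirin replicate 1 was the lowest of the 6. Summed counts were 1789 with aspirin against 7 in control, 3185 with diclofenac against the same 7, and 1448 with indomethacin. The ratios to control were 227 for aspirin (95% Poisson interval 110 to 565), 326 for diclofenac (158 to 811) and 170 for indomethacin (82.5 to 425). These intervals cover counting error only.

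Cxcl2, known in the RefSeq table also as Mip-2, attracts neutrophils like its neighbours and was named for its release by macrophages. Honokiol plus indomethacin libraries had 0.0324 and 0.0748 CPM of it, aspirin libraries 1.29 and 7.999, diclofenac libraries 3.56 and 12.2, indomethacin libraries 1.73 and 2.31, and control libraries 0.0632 and 0 CPM. The honokiol and control libraries held at most 2 counts each, and the NSAID libraries at least 35. Ratios to control rest on 2 control counts and were 166 for aspirin (95% Poisson interval 45.5 to 1372), 240 for diclofenac (66.1 to 1984) and 62.6 for indomethacin (17.0 to 522).

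Cxcl3, or Cinc-2, was the least abundant of the 4 per length in all 6 NSAID libraries. Its levels were 0.259 and 0.0374 CPM with honokiol plus indomethacin, 0.662 and 3.15 CPM with aspirin, 1.95 and 5.57 CPM with diclofenac, 1.06 and 1.13 CPM with indomethacin, and 0 and 0.0334 CPM in control. Aspirin replicate 1, the lowest NSAID library, was 2.56 times honokiol replicate 1, the highest of the others. With 1 count in the control group, ratios to control were 134 for aspirin (95% Poisson interval 23.7 to 5327), 229 for diclofenac (40.8 to 9073) and 67.6 for indomethacin (11.8 to 2700).

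Cxcl6, listed in RefSeq also under the older symbol Cxcl5, had no count in either control library. A count of 0 in both allows up to 3 counts over the group, or 0.0487 CPM. Its level was 0.0324 and 0.0374 CPM with honokiol plus indomethacin, 1 count in each library. It reached 1.99 and 6.79 CPM with aspirin, 7.80 and 8.93 CPM with diclofenac and 2.23 and 3.03 CPM with indomethacin. Summed counts divided by that floor, each scaled by library size, gave 101 for aspirin, 172 for diclofenac and 54.4 for indomethacin. The lower 95% limits of the count ratios, which cover counting error only, were 81.6, 139 and 43.8 for the same drugs. Its lowest NSAID library, aspirin replicate 1, was 53.1 times its highest honokiol library, but that honokiol library holds 1 count with a Poisson interval up to 0.208 CPM. The same ratio was 12.1 for Cxcl1 and 17.2 for Cxcl2, and the order of these gaps is not resolved.

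**Figure D1:**
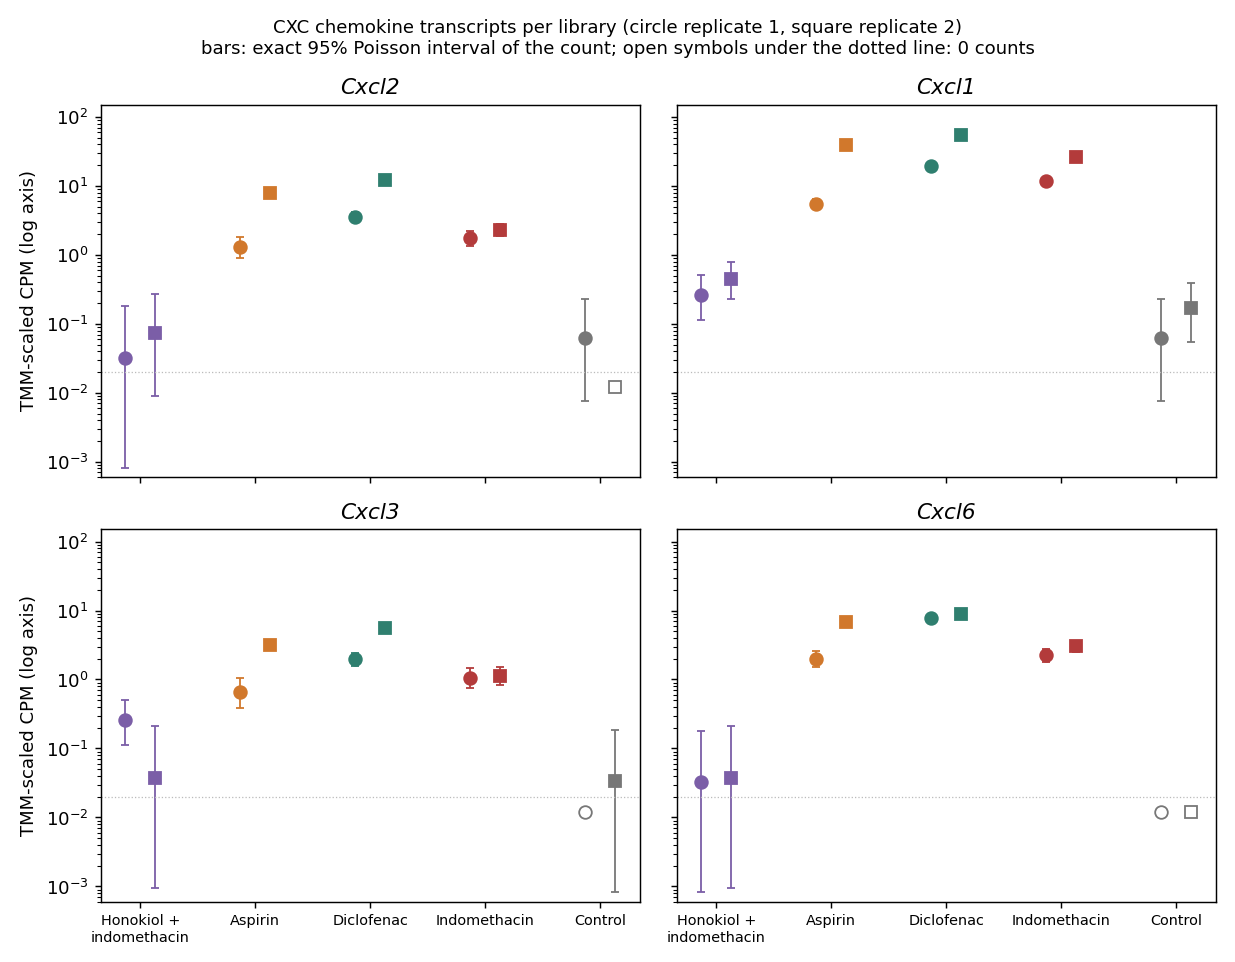
TMM-scaled CPM of each gene (log axis) in the 10 libraries, with circles for replicate 1 and squares for replicate 2 and bars for the exact 95% Poisson interval of the count, drawn for libraries with counts. The 6 NSAID libraries lie above the honokiol plus indomethacin and control libraries in all 4 panels, with aspirin replicate 1 the lowest of the 6, and open symbols mark 0 counts.

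In all 4 genes every NSAID library lay above every honokiol and control library. The same held for 947 of the 16346 genes tested, or 5.79%, and the choice of the set used these comparisons. The genes entered the test through the drug groups: no control library reached the level of the low-count filter, 0.285 CPM, for any of the 4. The quasi-likelihood test of edgeR, fitted on all genes with Benjamini-Hochberg adjustment, called genes at an adjusted p under 0.05. With aspirin 4 of 4 genes were called higher than control, where 9.5% of all genes were. Diclofenac also gave 4 of 4, against 4.76% of all genes. Indomethacin gave 1 of 4, Cxcl6, against 0.752% of all genes, while the fitted log2 fold changes of Cxcl2, Cxcl1 and Cxcl3 were 5.82 ± 1.56, 7.34 ± 1.53 and 5.79 ± 1.40 (SE). DESeq2 called 4 of 4 with each drug. In either direction it called 13.2% of the genes in its fit with aspirin, 7.37% with diclofenac and 1.6% with indomethacin, while the edgeR shares just given count higher genes only. The comparisons share the control libraries, and nothing is read from these counts.

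Single libraries moved both the calls and the fold changes. Without control replicate 1 edgeR called 1 gene of 4 with aspirin, 1 with diclofenac and 0 with indomethacin, where the shares of all genes called, in either direction, were 2.75%, 1.88% and 0.124% in place of 17.8%, 7.87% and 0.777%. Without control replicate 2 it called 1, 2 and 0 of 4, and 13.6%, 7.46% and 0.00586% of all genes. Leaving out either honokiol library lowered the number called with aspirin and diclofenac. The log2 fold change of Cxcl1 was then 7.565 or 7.605 with aspirin and 8.317 or 8.347 with diclofenac. Leaving out either aspirin library raised the number called with indomethacin, where the log2 fold change of Cxcl1 was 7.347 or 7.343. Over the alternatives tried, the log2 fold change of Cxcl1 ranged from 5.53 to 8.42 with aspirin, from 7.38 to 9.16 with diclofenac and from 6.62 to 8.18 with indomethacin. For Cxcl2 the ranges were 5.15 to 10.4, 6.63 to 11.1 and 4.94 to 9.16 with the same drugs, and for Cxcl3 5.05 to 9.13, 6.62 to 10.1 and 4.91 to 8.28. Reads on the Y chromosome were uneven between groups: 2733 to 4438 counts on such features were held by control replicate 1, indomethacin replicate 1 and both honokiol libraries, and at most 47 by the other 6. With a term for Y reads, Cxcl6 was the 1 gene called with each of the 3 drugs (edgeR adjusted p = 0.0158 with aspirin, 0.00882 with diclofenac and 0.0221 with indomethacin). That fit called 4.18%, 2.34% and 0.71% of all genes, in either direction, with the same drugs. Cxcl1 in the libraries with Y reads was 0.259 and 0.449 CPM with honokiol plus indomethacin, 11.6 CPM with indomethacin and 0.0632 CPM in control. In those without, it was 5.45 to 55.4 CPM in the 5 NSAID libraries and 0.167 CPM in the 1 control. Mitochondrial shares, given above, also differed between groups. A refit without mitochondrial and short single-exon features called 4, 4 and 1 of 4 genes with aspirin, diclofenac and indomethacin. Of all genes that refit called 18.5%, 8.5% and 0.807%, in either direction. Beyond this refit and the Y-read term, the part of Y reads and of the mitochondrial share in these differences was not tested.

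Honokiol before indomethacin was compared with indomethacin alone because the protocol speaks of protection by honokiol. All 4 chemokines had lower levels with honokiol, and the groups did not overlap for any of them, which with 2 libraries against 2 was so for 23.6% of all genes tested. Summed counts were 20 against 1448 for Cxcl1, 3 against 152 for Cxcl2, 9 against 82 for Cxcl3 and 2 against 198 for Cxcl6. The ratios were 0.0179 for Cxcl1 (95% Poisson interval 0.0109 to 0.0278), 0.0256 for Cxcl2 (0.00523 to 0.0763), 0.142 for Cxcl3 (0.0629 to 0.284) and 0.0131 for Cxcl6 (0.00158 to 0.0480). For Cxcl3, 8 of the 9 counts lay in honokiol replicate 1. The fitted log2 differences were -5.76 ± 1.33 for Cxcl1, -5.18 ± 1.47 for Cxcl2, -2.80 ± 0.99 for Cxcl3 and -6.11 ± 0.84 for Cxcl6 (SE). Without honokiol replicate 1 the difference of Cxcl3 was -4.75, so its size depends on that library. Those of Cxcl2 and Cxcl6 were then -4.70 and -6.01. The honokiol library left holds 1 count of Cxcl3, 2 of Cxcl2 and 1 of Cxcl6, so their order is not resolved.

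In this comparison edgeR called 1 of 4 genes lower, Cxcl6, against 0.3% of all genes called lower. DESeq2 called 4 of 4, against 1.01% of the genes in its fit in either direction. The call of Cxcl6 was lost with a term for Y reads and without honokiol replicate 1, honokiol replicate 2 or indomethacin replicate 2, at edgeR adjusted p = 0.104, 0.28, 0.35 and 0.0948, with log2 differences from -6.20 to -5.87. Both honokiol libraries held Y reads, as did indomethacin replicate 1. The part of Y reads in this comparison was not tested beyond that term. In tissue RNA, fewer cells that make a transcript and less of it per cell cannot be told apart.

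Honokiol plus indomethacin against control left small numbers. Cxcl1 had 8 and 12 counts with honokiol plus indomethacin and 2 and 5 in control, a ratio of 3.06 (95% Poisson interval 1.24 to 8.55), and the groups did not overlap in CPM, as in 18.3% of all genes in that direction. Cxcl3 had 8 and 1 counts against 0 and 1, a ratio of 9.63 (1.33 to 422). For Cxcl2 and Cxcl6 both groups were at or under 3 counts, and no fold is given. The edgeR test called 0 of 4 genes and 0% of all genes, where 816 genes had an unadjusted p below 0.05, and DESeq2 called 0 of 4 and 0.0747% of the genes in its fit. The fitted log2 difference of Cxcl1 had a 95% interval from -3.58 to 6.76, so the fit does not resolve a difference of several fold in either direction, while the Poisson interval above covers counting error only.

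**Figure D2:**
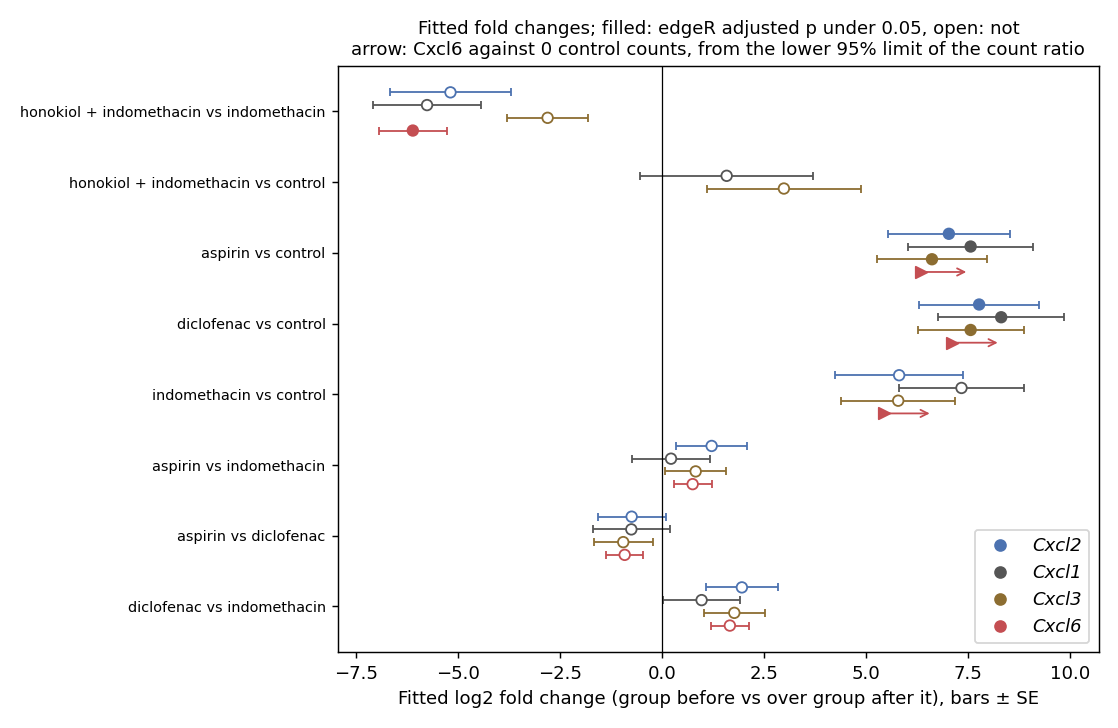
Fitted log2 fold changes from edgeR with their SE for 8 comparisons, given as the group before "vs" over the group after it, with filled symbols at an adjusted p under 0.05 and arrows for Cxcl6 against 0 control counts that start at the lower 95% limit of the count ratio. The NSAID comparisons with control lie between 5.79 and 8.32 for Cxcl1, Cxcl2 and Cxcl3, honokiol plus indomethacin against indomethacin lies between -6.11 and -2.80, and the comparisons between drugs lie between -0.95 and 1.96. Cxcl2 and Cxcl6 are left out for honokiol plus indomethacin against control, where both groups were at or under 3 counts.

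The 3 NSAIDs were also set against each other, at doses that differ. Aspirin carries an acetyl group on salicylic acid, while both other drugs are acetic acid derivatives of larger ring systems. Diclofenac means were the highest of the 3 for each gene. Cxcl6 averaged 8.37 ± 0.795 CPM with diclofenac and 2.63 ± 0.566 CPM with indomethacin (SD, n = 2 each), without overlap, and its log2 difference was 1.67 ± 0.47 with a 95% interval from 0.62 to 2.71 (SE, edgeR adjusted p = 0.257). Cxcl2 and Cxcl3 did not overlap between these drugs either, where 23.5% of all genes were higher without overlap, with log2 differences of 1.96 ± 0.88 and 1.78 ± 0.75 (SE, edgeR adjusted p = 0.434 and 0.403). Cxcl1 overlapped, at 0.97 ± 0.95 with an interval from -1.35 to 3.29 (SE, edgeR adjusted p = 0.719). None of the 4 passed the test, and 0.0184% of all genes did.

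Aspirin and indomethacin overlapped in all 4 genes, with log2 differences from 0.22 for Cxcl1 to 1.22 for Cxcl2 and edgeR adjusted p from 0.372 to 0.913, where 0.0184% of all genes were called. Without aspirin replicate 2 these differences became -1.82 for Cxcl1, -0.66 for Cxcl2, -0.73 for Cxcl3 and -0.41 for Cxcl6. Against diclofenac, aspirin was lower in the fit by 0.74 to 0.95 on the log2 scale (edgeR adjusted p from 0.779 to 0.855), and the groups overlapped except for Cxcl6 (18.9% of all genes were lower without overlap), at 1.99 and 6.79 CPM with aspirin and 7.80 and 8.93 CPM with diclofenac. In this last comparison edgeR called 0% of all genes, where 852 had an unadjusted p below 0.05, and DESeq2 called 0 of the 4 and 0.029% of the genes in its fit. Across the 3 pairs of drugs and 4 genes no difference passed the adjustment over all genes, which does not show that the drugs acted alike: the 95% interval of Cxcl1 for aspirin over diclofenac ran from -3.06 to 1.56.

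Spread between replicates differed between the genes. Aspirin replicate 2 exceeded replicate 1 by 7.13 times for Cxcl1, 6.21 for Cxcl2, 4.75 for Cxcl3 and 3.42 for Cxcl6. Diclofenac replicate 2 exceeded replicate 1 by 2.84 times for Cxcl1, 3.43 for Cxcl2 and 2.86 for Cxcl3 but 1.14 for Cxcl6. With indomethacin the corresponding values were 2.29 for Cxcl1, 1.34 for Cxcl2, 1.07 for Cxcl3 and 1.36 for Cxcl6. Cxcl6 was thus the steadiest of the 4 in the aspirin and diclofenac pairs and Cxcl3 in the indomethacin pair. Aspirin replicate 1, the library with the smallest total, was the lowest NSAID library for all 4 genes, and whether depth has a part in this was not tested.

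Per length, Cxcl1 made up most of the summed level of the 4 genes in each NSAID library. On the scale of CPM per kb of exon its share ran from 67.2% in aspirin replicate 1 to 85.7% in indomethacin replicate 2. Shares of Cxcl2 were 13.7% and 13.4% with aspirin, 10.9% and 14.2% with diclofenac, and 9.95% and 6.45% with indomethacin. Cxcl6 took 14% and 7.51% with aspirin, 15.7% and 6.83% with diclofenac and 8.48% and 5.58% with indomethacin. Cxcl3 stayed between 2.31% and 5.16% in all 6.

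The level of Cxcl6 relative to Cxcl1 therefore differed within each drug group. Per kb it was 0.208 in aspirin replicate 1 (95% binomial interval 0.149 to 0.286) and 0.0997 in replicate 2 (0.0877 to 0.113). In diclofenac it was 0.228 in replicate 1 (0.201 to 0.259) and 0.0920 in replicate 2 (0.0822 to 0.103), and in indomethacin 0.11 in replicate 1 (0.0854 to 0.14) and 0.0651 in replicate 2 (0.0534 to 0.0789). In each pair the library with the lower summed level of the 4 genes had the higher ratio and the intervals did not overlap, though they cover counting error only. The ratio of Cxcl2 to Cxcl1 was 0.204 and 0.178 with aspirin and 0.158 and 0.191 with diclofenac, with overlapping intervals in each pair, and 0.129 and 0.0753 with indomethacin. Between drugs, both indomethacin libraries had a lower Cxcl2 to Cxcl1 ratio than any aspirin or diclofenac library, a difference that was not tested. The interval of indomethacin replicate 1 (0.0972 to 0.169) overlapped those of both aspirin libraries (0.137 to 0.297 and 0.158 to 0.2). It also overlapped that of diclofenac replicate 1 (0.132 to 0.187), but not that of diclofenac replicate 2 (0.173 to 0.21). The interval of indomethacin replicate 2 (0.06 to 0.0934) overlapped no aspirin or diclofenac interval.

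**Figure D3:**
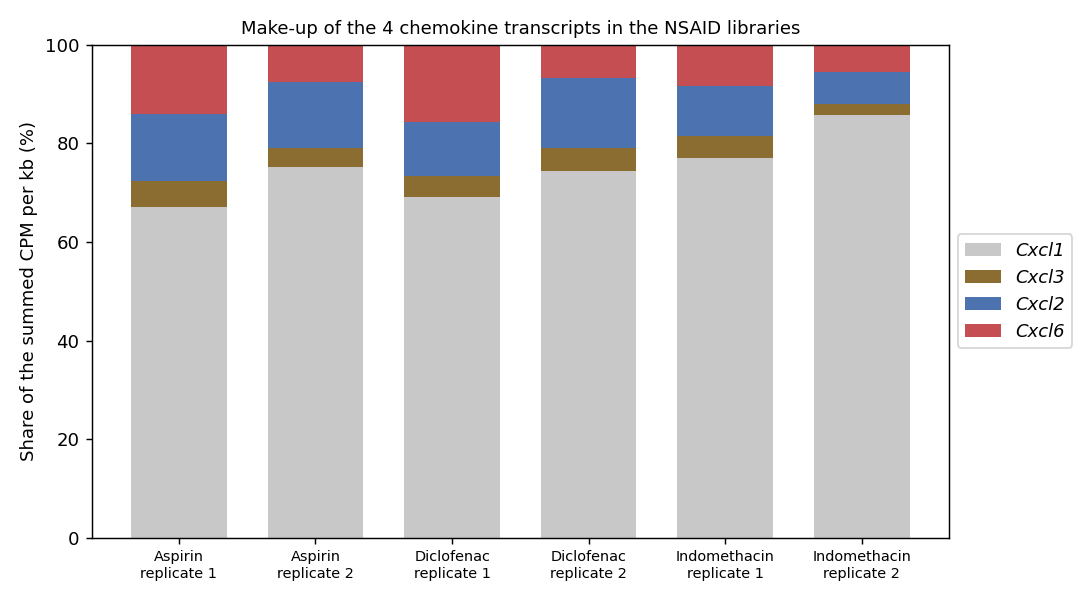
Share of each gene in the summed CPM per kb of the 4 genes, in percent, for the 6 NSAID libraries. Cxcl1 takes 67.2% to 85.7%, and the share of Cxcl6 is 15.7% in diclofenac replicate 1 against 6.83% in replicate 2.

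Neighbouring features were read for comparison, in a window around the set on chromosome 14, where the tables list 12 besides the set and 5 passed the low-count filter. They are given by position, because their identifiers are not paired with symbols. A 3-exon feature of 318 nt from 18848549 to 18849258, between Cxcl3 and Cxcl6, had 0.583 and 0.486 CPM with honokiol plus indomethacin, 0.699 and 2.18 with aspirin, 1.79 and 2.71 with diclofenac, 2.45 and 3.70 with indomethacin and 0.442 and 0.267 in control. It rose with all 3 drugs, by log2 fold changes of 2.04 ± 0.55 with aspirin, 2.65 ± 0.55 with diclofenac and 3.10 ± 0.55 with indomethacin (SE, edgeR adjusted p = 0.0302, 0.0173 and 0.0276). Its level was highest with indomethacin, whereas the 4 chemokines were highest with diclofenac, but its own log2 difference of diclofenac over indomethacin was -0.45 ± 0.46 (SE, edgeR adjusted p = 0.72).

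At 142 kb from Cxcl2, a 5-exon feature from 18576355 to 18591394 was also high in the NSAID libraries. It had 0.291 and 0.225 CPM with honokiol plus indomethacin, 2.13 and 4.95 with aspirin, 2.50 and 8.31 with diclofenac, 6.75 and 6.88 with indomethacin and 0.600 and 0.100 in control. On the log2 scale it rose by 3.32 ± 0.81 with aspirin and by 3.92 ± 0.81 with diclofenac (SE, edgeR adjusted p = 0.0295 and 0.0277). The estimate for indomethacin was 4.25 ± 0.81 and missed the threshold (SE, edgeR adjusted p = 0.0717). By contrast, the feature next to Cxcl2, from 18640277 to 18720357, had 0.478 to 0.734 CPM in the aspirin and diclofenac libraries and 1.86 and 0.568 in control, with no call in any comparison. An 11-exon feature on the other side, from 18983853 to 19025971, fell, with log2 fold changes of -1.01 ± 0.26 for aspirin and -1.20 ± 0.26 for diclofenac (SE, edgeR adjusted p = 0.0273 and 0.0223). The remaining tested feature, from 18521930 to 18531179, was called in none of the 8 comparisons. Of the 4 other features between Cxcl2 and Cxcl6, 3 held 2 to 10 counts over all 10 libraries.

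**Figure D4:**
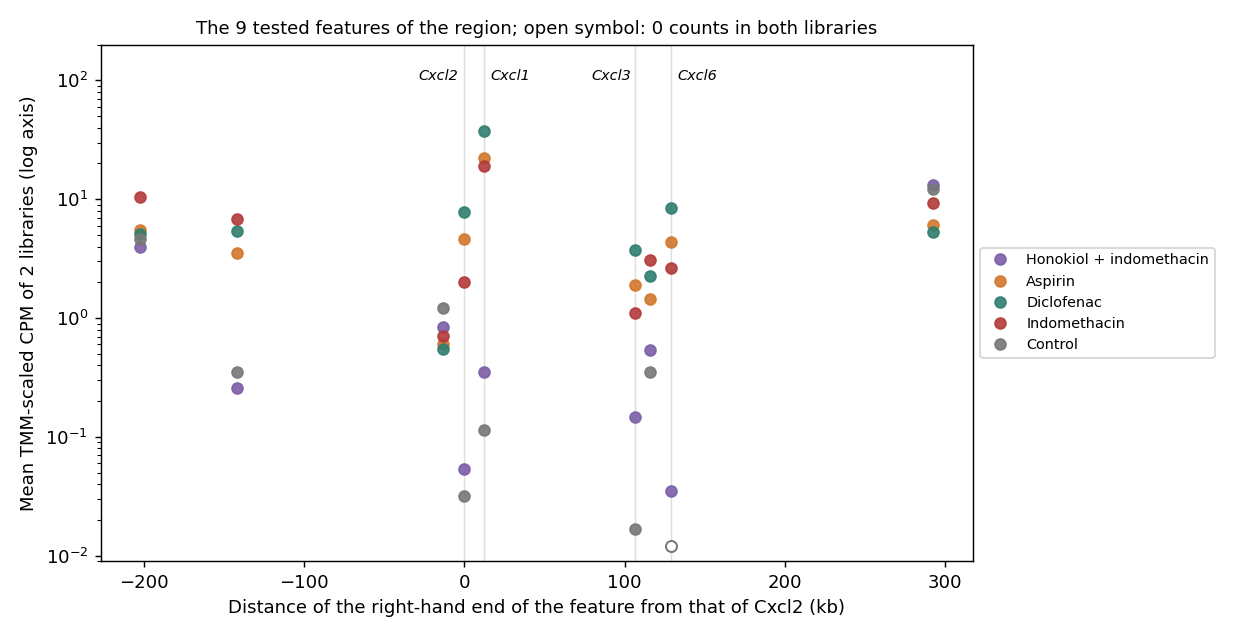
Mean TMM-scaled CPM of the 2 libraries of each group (log axis) for the 9 tested features, plotted by the distance in kb of their right-hand end from that of Cxcl2. The 4 chemokines and the features 142 kb to the left and 116 kb to the right of Cxcl2 are high in the NSAID groups, while the right-hand outermost feature is lower with aspirin and diclofenac than in control.

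Other genes across the genome followed patterns like those of the chemokines. Likeness was the Pearson correlation over the 10 libraries in log2 CPM, among 11365 candidates outside the set whose log2 CPM averaged 1 or more. The points share their libraries and fall, for each chemokine, into 6 high and 4 low ones, so r is a description and has no p. Cxcl6 was most like a 7-exon gene on chromosome 1 from 72635267 to 72643255, at r = 0.999. For Cxcl2 the nearest was a 6-exon gene on chromosome 4 from 156253079 to 156264769 and for Cxcl3 a 2-exon gene on chromosome 4 from 10323607 to 10329241, both at r = 0.988. Cxcl1 was nearest to a 2-exon gene on chromosome 1 from 85380088 to 85382569, at r = 0.988. The 4 chemokines were left out of the candidates. Set among them, Cxcl6 would rank 3 for likeness to Cxcl2 (r = 0.982) and 4 for likeness to Cxcl1 (r = 0.984). Cxcl1 would rank 12 for Cxcl2 (r = 0.976). Cxcl3 was farther from the others, at rank 50 for Cxcl1, 57 for Cxcl6 and 72 for Cxcl2 (r = 0.958, 0.957 and 0.951).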

How the data were processed

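The authors deposited whole-number counts per Ensembl gene, 1 file per library, with the column layout of featureCounts as the file headers show. The submitters' processing notes name DESeq2, featureCounts, SAMtools, HISAT2 2.1.0, cutadapt 1.16, FastQC 0.11.7 and bcl2fastq, without roles. Per the labels' protocols, libraries were depleted of ribosomal RNA, stranded and read as paired ends. No source used here states the genome build, the strand setting or how multi-mapping reads were counted, so reads may be shared between similar chemokine genes. Group came from the sample titles.

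The main test was edgeR 4.0.16 in R 4.3.3 (quasi-likelihood F test, TMM, filterByExpr at a minimum count of 10 and total of 15, robust moderation), with all 10 libraries in 1 fit, 5 residual degrees of freedom and 16346 genes tested. DESeq2 1.42.0 was an alternative. The standard error is the log2 fold change divided by the square root of F. The fit was tested on simulated data. The genes, lists and tests were chosen with earlier results of these data known. Of the 32623 identifiers, 0 matched the RefSeq table, so the 18 gene lists, among them markers of neutrophils and epithelium, were not applied. Named genes were the 4 of the set (exon starts between 18700000 and 18900000), features between 18500000 and 19100000 by position, and the 3 most correlated genes for each of the 4.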

Additional observations from a re-analysis of the deposited data

How the results depend on the processing

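Of 288 refitted log2 fold changes of the 4 genes for NSAIDs against control and for honokiol plus indomethacin against indomethacin, 288 kept their sign, and 37 lost and 24 gained a call. The number of genes called of 4 changed in each of these comparisons with 1 library left out at a time. For indomethacin against control it was 4 with DESeq2, without a low-count filter and within the 2 groups alone, where 1.6%, 3.46% and 1.72% of all genes were called in place of 0.777%. For honokiol plus indomethacin against indomethacin it was 4 with DESeq2, 4 without a filter, 3 within the 2 groups alone and 0 with a term for Y reads, beside 1.01%, 2.9%, 1.63% and 0.214% of all genes in place of 0.343%. That term gave 1 for aspirin and 1 for diclofenac against control, beside 4.18% and 2.34% of all genes, and the 2 groups alone gave 2 for aspirin, beside 11.3%. Without a filter it was 4 for diclofenac and 1 for aspirin against indomethacin, and within the 2 groups alone 1 for diclofenac, beside 3.62%, 5.87% and 0.381% of all genes in place of 0.0184%. The cause was not tested. For honokiol plus indomethacin against control, 0 of 4 was called in every alternative except within the 2 groups alone, where none of the 4 passed the filter.

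Same-numbered deviations correlated at -0.26 to 0.30 between groups. Among control, indomethacin and honokiol plus indomethacin they correlated at 0.13 to 0.30, and between aspirin and diclofenac at 0.22. Between either of these last drugs and the other groups they correlated at -0.26 to -0.10. Whether replicate numbers pair the libraries was not tested. With a replicate block the count was 3 for indomethacin against control and 3 for honokiol plus indomethacin against indomethacin, beside 0.752% and 0.434% of all genes.

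Signs turned only where no call was made. For Cxcl1, aspirin over indomethacin became -0.16 with the replicate block and -0.26 with the Y-read term. With 1 library left out at a time, aspirin over indomethacin ran from -1.82 to 1.02 for Cxcl1, from -0.66 to 1.98 for Cxcl2, from -0.73 to 1.52 for Cxcl3 and from -0.41 to 1.36 for Cxcl6, lowest in each without aspirin replicate 2. Aspirin over diclofenac ran from -2.79 to 0.19 for Cxcl1 and from -2.62 to 0.40 for Cxcl2, and honokiol plus indomethacin over control from -0.25 to 3.97 for Cxcl2. Of 40 shares of the summed level, 17 moved beyond the replicate SD when not scaled by length. Raw library totals cannot move a share, because the scaling of a library cancels within it. Levels in control rest on 0 to 5 counts per library.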
